A study of Mus musculus with 5 samples.

Results

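The comparison described here sets the library labelled HIF-1α knockdown against the shControl library. Both come from B16F10, a pigment-forming melanoma line of the mouse. The labels give the first genotype as knockdown and that of the shControl cells as WT, with no further treatment in either. All 5 libraries of the series share 1 culture description: serum-free medium without added growth factors, shaking at 60 to 80 rpm over 7 to 10 days, and the picking of tumour spheroids. Not stated in the sources used here is the hairpin sequence, the vector, and whether each line was a clone or a pool. The 3 other libraries, labelled HIF-1α overexpression, dynamic suspension culture and conventional 3D culture, serve below only to show where the 2 compared libraries lie. By its title, the series asks how HIF-1α relates to stem-like tumour cells and the p53 pathway.

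Both columns list the same 54100 genes, of which 12639 were measured, that is, had a mean of at least 1 CPM (counts scaled to a common library total with TMM factors) over the 2 libraries. Each library pooled 3 repeats, so each group has 1 library, differences lack a replicate check, and no test across conditions was possible. A gene is called higher or lower beyond 2-fold when its log2 ratio, labelled knockdown over shControl, is at least 1 in size and its 95% counting interval leaves out a ratio of 1. These intervals cover counting error only. The deposited values summed to 14803426 in the library labelled knockdown and to 59493240 in shControl. The first column holds plain counts, as does that of the library labelled overexpression, and the other 3 hold estimated counts, so the kind of column and the group cannot be told apart. In the library labelled knockdown 422 genes stood at a value of 4 and 580 at 3, while in shControl 811 stood at 4 and 482 at 3. Genes of "own sequence" overlap no other gene's exons and share under 10% of their sequence with other genes. The 6257 measured protein-coding genes of own sequence are used wherever the kind of column bears most on a value, and other genes are marked as sharing sequence. All 8 melanocyte markers were above 1 CPM in both libraries and summed to 15403 CPM in the library labelled knockdown and 25482 CPM in shControl. Of 12 immune, 8 endothelial, 10 epithelial and 6 erythroid markers, at most 1 of any set reached 1 CPM in either library.

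Oxygen controls the HIF-1α subunit of a transcription factor that switches on glycolytic, angiogenic and survival genes when oxygen is low. In well-oxygenated cells prolyl hydroxylases mark the protein, and the VHL ubiquitin ligase then destroys it, so the protein is controlled largely after translation. In melanoma cells the gene is also known as a target of the pigment cell regulator MITF.

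Hif1a (ENSMUSG00000021109) is a protein-coding gene on the plus strand of GRCm38 chromosome 12, 73901375 to 73947530, and its level was 95.1 CPM under the knockdown label, 384 under the overexpression label, 390.5 in dynamic suspension, 542 in conventional 3D culture and 61.3 in shControl. The level in the library labelled knockdown was 1.55-fold that of shControl (log2 ratio 0.63, 95% counting interval 0.54 to 0.72), so the targeted transcript was higher where the label says it was reduced. For this reason the library is named by its label throughout, and no direction below can be read as an effect of less Hif1a. Both libraries were far below the other 3, and the library labelled knockdown lay at a log2 ratio of -2.01 to the library labelled overexpression. Hif1a exons overlap those of Gm15283 and Gm49321 over 8.11% of their length, and 6.72% of its sequence recurs in other genes. With the trend with GC content described below subtracted, its log2 ratio was 1.27, since genes of like GC content had a median of -0.64.

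Most HIF pathway genes differed little: of 16 measured members, Hif1a among them, 1 was higher and 0 lower beyond 2-fold (median 0.38, GC-centred 0.19). The backgrounds were 8.05% of all measured genes higher and 15.7% lower. The 1 member called was Arnt2 (shared sequence), a partner subunit, at 2.23 CPM under the knockdown label against 0.877 CPM in shControl. Epas1, which encodes HIF-2α, was 19.8 CPM under the knockdown label, 30.7 under the overexpression label, 13.7 in dynamic suspension, 24.1 in conventional 3D culture and 13.1 in shControl. Arnt, which encodes the constitutive partner subunit, was 60.9 CPM under the knockdown label against 58.01 CPM in shControl (log2 ratio 0.07, interval -0.04 to 0.17). Egln1, the main prolyl hydroxylase, had the largest ratio among the oxygen sensors, at 92.3 CPM under the knockdown label against 49.99 CPM in shControl (log2 ratio 0.88), whereas Egln2 (shared sequence) and Egln3 had log2 ratios of 0.11 and 0.35. Hif1an, the asparagine hydroxylase that blocks HIF-1α from its coactivators, was 65.96 CPM under the knockdown label against 52.3 CPM in shControl. In the ubiquitin ligase that removes HIF-1α, Vhl stood at a log2 ratio of 0.38, Rbx1 at 0.23 and Elob (shared sequence) at 0.37. The scaffold gene Cul2 and the adaptor gene Eloc stood at -0.66 and -0.76. GC-centred, these ratios were 0.18, 0.62, -0.44, -0.02 and -0.09 in the same order, so Cul2 and Eloc were then near 0. Among the coactivators and their competitor, Crebbp had a log2 ratio of 0.72, Ep300 (shared sequence) of 0.69 and Cited2 of 0.59. Hif3a was near the floor, with 1 count in the library labelled knockdown and 0.179 CPM in shControl.

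**Figure D1:**
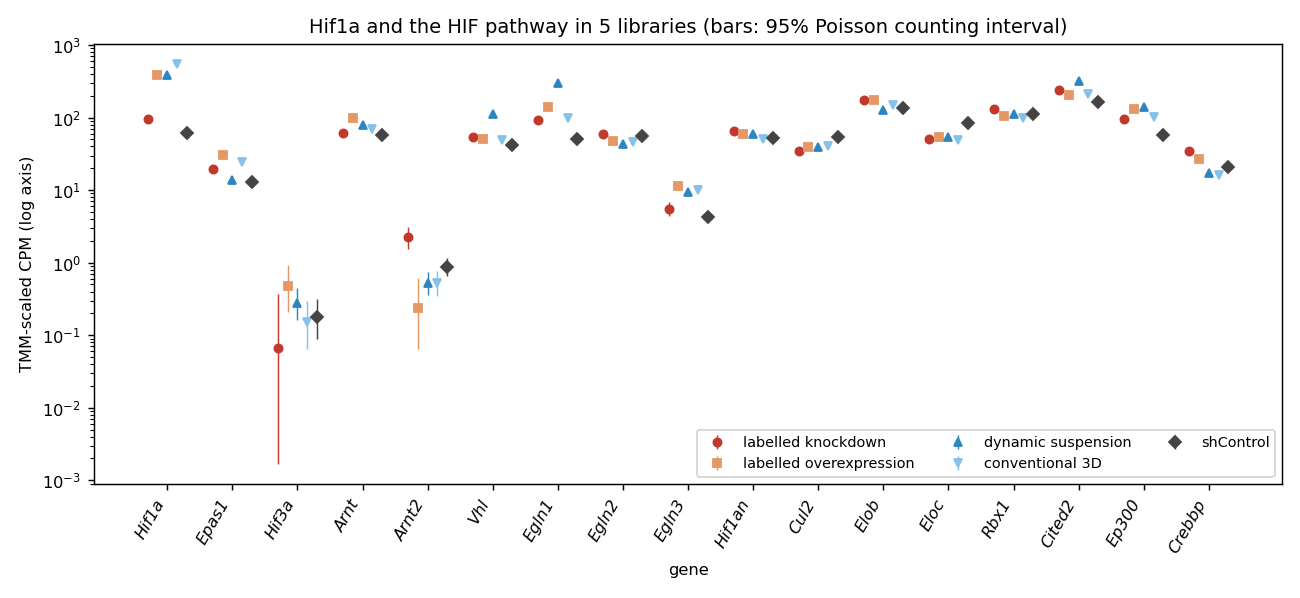
Levels of Hif1a and 16 other HIF pathway genes in the 5 libraries, as TMM-scaled CPM on a log axis, with 95% Poisson counting intervals as bars. Hif1a stood at 95.1 CPM in the library labelled knockdown and 61.3 CPM in shControl, both below the 3 other libraries, while most other genes of the pathway lay close together.

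The library labelled knockdown had 1017 measured genes above shControl beyond 2-fold and 1979 below it, and the median log2 ratio was 0.01. Among the 6257 protein-coding genes of own sequence, 599 (9.57%) were higher and 478 (7.64%) lower, with a median of 0.14, and 51.7% lay within 0.5 of 0 on the log2 scale. The share of higher genes among those called was 33.9% over all genes and 55.6% over genes of own sequence. Both plain-count libraries lay below all 3 estimated-count libraries in 1122 of the 1979 lower genes, against 114 of the 478 of own sequence. They lay above all 3 in 462 of the 1017 higher genes and in 280 of the 599 of own sequence. Over all measured own-sequence genes they lay above in 13.4% and below in 5.53%. Choosing genes by this ratio itself favours such a split. Processed pseudogenes, copies that share sequence with their parent genes, made up 411 of the lower and 49 of the higher genes. The library labelled knockdown was the highest of the 5 libraries in 27.3% of measured genes and the lowest in 23.5%, and shControl was the highest in 22.6% and the lowest in 20.2%. These shares are the background for the ranks given for the gene lists below. For the counts beyond 2-fold, the backgrounds are 8.05% higher and 15.7% lower.

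The ratio moved with the GC content of the transcript. In 5 equal groups of the own-sequence genes by GC content, from 30.97 to 43.8% up to 55.7 to 72.8%, the median log2 ratio was -0.49, -0.02, 0.20, 0.37 and 0.58. The share of genes higher beyond 2-fold was 1.52, 2.88, 7.51, 12.8 and 23.2% in the same order, and the share lower was 20.8, 7.35, 4.16, 3.52 and 2.40%. Genes called higher had a median GC content of 55.4%, those called lower 43.2% and the rest 49.4%. Over shControl, the medians of the lowest and highest groups were 0.05 and 0.43 in the library labelled overexpression, -0.01 and 0.15 in dynamic suspension and -0.11 and 0.26 in conventional 3D culture. Between the 2 libraries of plain counts, labelled knockdown over labelled overexpression, the 5 medians were -0.50, 0.00, 0.19, 0.27 and 0.16. The part of GC content in the results below was not tested. Lists are therefore given also with a GC-centred median, from which the median of own-sequence genes of like GC content is subtracted, a choice made after seeing the data. Under that centring 310 own-sequence genes (4.95%) were higher and 453 (7.24%) lower, so that higher genes made up 40.6% of those called, and over all measured genes 4.36% were higher and 15.2% lower, a share of 22.3%. Scaling by protein-coding genes of own sequence alone shifted every ratio by -0.13 and put the share of higher genes among those called at 40.6% for own-sequence genes and 24.1% for all. The median showed no such trend with exon length, at between 0.10 and 0.17 across 5 equal groups by length. From the shortest group to the longest, 12.8, 9.84, 8.15, 7.43 and 9.66% of genes were higher beyond 2-fold. In the same order 6.54, 7.04, 6.87, 8.31 and 9.42% were lower.

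**Figure D2:**
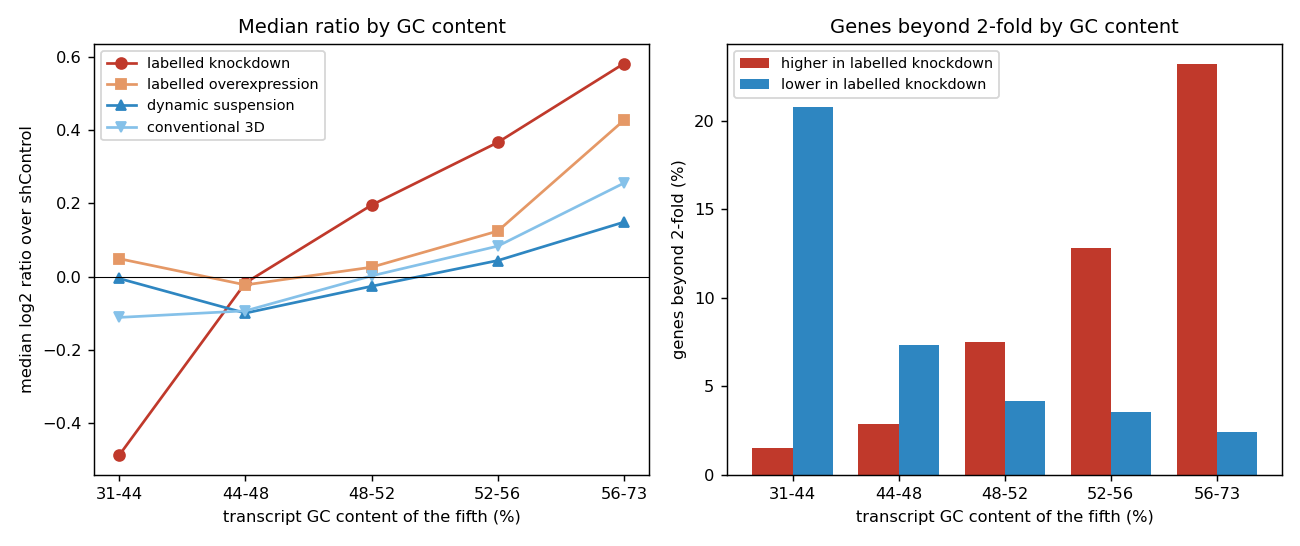
Left, the median log2 ratio over shControl of protein-coding genes of own sequence in 5 groups of transcript GC content, for the library labelled knockdown and the 3 others. Right, the percentage of those genes that lay above or below shControl beyond 2-fold in the library with the knockdown label. The medians of the library labelled knockdown run from -0.49 in the lowest group to 0.58 in the highest, the widest span of the 4 libraries.

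Many genes of the amino acid stress response stood higher in the library labelled knockdown. This programme is run by the transcription factor ATF4, which is translated when amino acids are short or the endoplasmic reticulum is stressed, and which induces amino acid transporters, amino acid synthesis and tRNA charging. Of 17 measured ATF4 regulators and direct stress genes, 9 were higher and 0 lower beyond 2-fold, with a median log2 ratio of 1.11 (GC-centred 0.80). Trib3, a pseudokinase that feeds back on ATF4, was 336 CPM under the knockdown label, 50.5 under the overexpression label, 116 in dynamic suspension, 48.3 in conventional 3D culture and 73.5 in shControl (log2 ratio 2.19, interval 2.14 to 2.25). Chac1, a glutathione-degrading enzyme, was 255 CPM under the knockdown label against 43.5 CPM in shControl (log2 ratio 2.55), and the other 3 had 34.9 CPM under the overexpression label, 59.9 in dynamic suspension and 21.1 in conventional 3D culture. The library labelled knockdown was thus the highest of the 5 for both genes. Gdf15, a stress-induced secreted factor, was 1.97 CPM under the knockdown label against 0.162 CPM in shControl. Vldlr, a lipoprotein receptor, was 7.09 CPM under the knockdown label against 1.51 CPM in shControl. Cebpb (shared sequence), a transcription factor that pairs with ATF4, was 76.5 CPM under the knockdown label against 10.9 CPM in shControl. Eif4ebp1, an inhibitor of translation initiation, was 257 CPM under the knockdown label against 111 CPM in shControl. Atf4 itself was 881 CPM under the knockdown label against 483 CPM in shControl (log2 ratio 0.87), short of 2-fold. Ddit3 (shared sequence), which encodes the stress factor CHOP, had a log2 ratio of 0.45, and Nupr1, another stress-induced nuclear factor, of -0.76.

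Several genes that make or import amino acids were higher as well. Of 20 genes of serine, one-carbon and amino acid synthesis, 7 were higher and 0 lower (median 0.88, GC-centred 0.63). Gpt2, a mitochondrial alanine transaminase, was 189 CPM under the knockdown label, 34.2 under the overexpression label, 29.2 in dynamic suspension, 23.8 in conventional 3D culture and 60.3 in shControl (log2 ratio 1.65). Cth, which makes cysteine from cystathionine, was 55.2 CPM under the knockdown label against 21.3 CPM in shControl. Pycr1, a proline-forming reductase, was 25.1 CPM under the knockdown label against 11.4 CPM in shControl. Aldh18a1, which starts proline synthesis, was 491 CPM under the knockdown label against 235 CPM in shControl. The serine pathway genes Phgdh and Psph (both shared sequence) had log2 ratios of 1.42 and 1.66, and Shmt2 (shared sequence), the mitochondrial serine hydroxymethyltransferase, of 1.33. Asns, asparagine synthetase, was 788 CPM under the knockdown label against 399 CPM in shControl (log2 ratio 0.98). Among 15 amino acid transporters 4 were higher and 0 lower (median 0.73, GC-centred 0.45). Slc7a5, the large neutral amino acid transporter, was 918 CPM under the knockdown label, 262 under the overexpression label, 208 in dynamic suspension, 279.8 in conventional 3D culture and 316 in shControl. Slc1a4, a serine and alanine transporter, was 172 CPM under the knockdown label against 60.9 CPM in shControl. The cystine importer gene Slc7a11 was 47.1 CPM under the knockdown label against 17.4 CPM in shControl. The cationic transporter gene Slc7a1 was 595 CPM under the knockdown label against 297 CPM in shControl. Cytosolic tRNA synthetases had 2 of 20 members higher, Vars and Wars (log2 ratios 1.30 and 1.05), and 0 lower (median 0.58, GC-centred 0.36). Their share of higher genes was near the 8.05% of all measured genes.

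In these lists the library labelled knockdown was often the highest. It was the highest of the 5 libraries in 11 of 17 ATF4 genes, 15 of 20 synthesis genes, 11 of 15 transporters and 14 of 20 tRNA synthetases, against 27.3% of all measured genes. Over shControl, the synthesis genes had medians of -0.84 in the library labelled overexpression, -0.88 in dynamic suspension and -0.48 in conventional 3D culture. The tRNA synthetases stood likewise at -0.83, -0.72 and -0.40, the transporters at -0.32, -0.38 and -0.18 and the ATF4 genes at -0.35, 0.13 and -0.89. Apart from the ATF4 genes in dynamic suspension, these medians lay below 0, on the other side of shControl from the library labelled knockdown. After GC-centring 6 ATF4 genes, 3 synthesis genes, 4 transporters and 0 tRNA synthetases were higher beyond 2-fold.

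ATF4 and its C/EBP partners bind a composite element, searched here as TGATGNAA on both strands of the 250 bases before each RefSeq start (GRCm38.p6). It occurred in 5 of 18 ATF4 stress genes with a promoter, or 27.8%, and in 2.26% of 9209 measured genes. The 5 were Atf3, Chac1, Vldlr, Fgf21, which was not measured, and Nupr1, whose log2 ratio was -0.76. The element also stood in 2 of 12 amino acid transporters with a promoter, Slc7a11 among them. Of synthesis genes 3 of 16 held it, and of tRNA synthetases 3 of 12. The stretches around it are shown for 4 genes higher in the library labelled knockdown, with matches on either strand in capitals. They begin 193 (Chac1, chr2:119351009-119351096, plus strand), 200 (Vldlr, chr19:27216780-27216867, plus strand), 110 (Atf3, chr1:191183396-191183483, minus strand) and 47 bases (the nearer match of Slc7a11, chr3:50443614-50443700, minus strand) before the start.
Chac1: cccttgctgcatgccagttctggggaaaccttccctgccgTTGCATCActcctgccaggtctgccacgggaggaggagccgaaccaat
Vldlr: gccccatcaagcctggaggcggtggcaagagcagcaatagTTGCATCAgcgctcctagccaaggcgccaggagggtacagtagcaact
Atf3: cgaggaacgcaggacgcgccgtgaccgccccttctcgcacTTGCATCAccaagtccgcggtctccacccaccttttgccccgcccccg
Slc7a11: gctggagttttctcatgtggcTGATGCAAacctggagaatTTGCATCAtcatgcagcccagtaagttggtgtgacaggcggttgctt
The Slc7a11 stretch carries 2 matches, in opposite orientations. Atf3, a stress-induced repressor, was 35.2 CPM under the knockdown label against 14.8 CPM in shControl (log2 ratio 1.25). A match is a description of these letters and shows no binding.

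Several genes of fatty acid and cholesterol synthesis were also higher beyond 2-fold, and shControl was often the lowest of the 5 libraries. SREBP proteins are membrane-bound factors that enter the nucleus when sterols or fatty acids are low and switch on both pathways. Of 15 fatty acid genes 5 were higher and 0 lower (median 0.73, GC-centred 0.39), and all 15 had a ratio above 0. Fasn, fatty acid synthase, was 1672 CPM under the knockdown label, 899 under the overexpression label, 1001 in dynamic suspension, 734 in conventional 3D culture and 369.5 in shControl (log2 ratio 2.18, interval 2.15 to 2.20). Scd1, a stearoyl-CoA desaturase, was 172 CPM under the knockdown label against 39.4 CPM in shControl, and the other 3 had 263 CPM under the overexpression label, 216 in dynamic suspension and 192 in conventional 3D culture. shControl was thus the lowest of the 5 libraries for both, and for Fasn the library labelled knockdown was also the highest, as it was in 6 of the 15 genes. Scd2 (shared sequence) was 2289 CPM under the knockdown label against 647 CPM in shControl. Srebf1 (shared sequence), which encodes the SREBP of fatty acid genes, was 222 CPM under the knockdown label, 94.2 under the overexpression label, 79.1 in dynamic suspension, 54.98 in conventional 3D culture and 56.9 in shControl. For this gene the library labelled knockdown lay apart, and shControl was close to conventional 3D culture.

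In cholesterol synthesis 7 of 19 genes were higher and 2 lower (median 0.60, GC-centred 0.49). Mvd was 35.6 CPM under the knockdown label against 13.1 CPM in shControl. Mvk was 34.4 CPM under the knockdown label against 14.8 CPM in shControl. The 2 lower genes, Fdps and Idi1 (both shared sequence), were 3.22 and 14.1 CPM under the knockdown label against 125 and 33.7 CPM in shControl. Fdps was also low in the other plain-count library, at 9.05 CPM, and high in dynamic suspension and conventional 3D culture, at 265 and 435 CPM, so its split follows the kind of column. In the sterol sensing list 4 of 14 were higher and 0 lower (median 0.51, GC-centred 0.23). Srebf2, the SREBP of cholesterol genes, was 544 CPM under the knockdown label, 464 under the overexpression label, 286 in dynamic suspension, 323 in conventional 3D culture and 186 in shControl. Lrp1, a lipoprotein and protease receptor, was 256 CPM under the knockdown label against 60.2 CPM in shControl. shControl was the lowest of the 5 libraries in 14 of 19 cholesterol genes, 9 of 15 fatty acid genes and 7 of 14 sterol sensing genes, against 20.2% of all measured genes. Cholesterol genes had medians over shControl of 0.79 in the library labelled overexpression, 0.90 in dynamic suspension and 0.75 in conventional 3D culture, all above the 0.60 of the library labelled knockdown.

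Many interferon-stimulated genes were lower in the library labelled knockdown. Interferons, or RNA and DNA sensed inside the cell, activate transcription factors that induce antiviral genes and the machinery that presents antigen on MHC class I. Of 23 measured interferon-stimulated genes 12 were lower and 1 higher beyond 2-fold (median -1.02, GC-centred -1.17), and 21 had a ratio below 0. Among 9 members of own sequence 3 were lower and 1 higher. Xaf1, a pro-apoptotic interferon-induced gene, was 0.263 CPM under the knockdown label, 2.68 under the overexpression label, 92.5 in dynamic suspension, 58.9 in conventional 3D culture and 4.74 in shControl (log2 ratio -3.95, interval -6.06 to -2.80). Gbp3, a guanylate-binding protein, was 0.525 CPM under the knockdown label against 3.86 CPM in shControl. Ifi27 was 27.4 CPM under the knockdown label against 69.1 CPM in shControl. Irgm2 (shared sequence), an immunity-related GTPase, was 0.722 CPM under the knockdown label against 4.74 CPM in shControl. The 1 gene in the other direction was Trim25, a ubiquitin ligase of RNA sensing, at 16.6 CPM under the knockdown label, 18.5 under the overexpression label, 21.9 in dynamic suspension, 25.4 in conventional 3D culture and 3.85 in shControl. The library labelled knockdown was the lowest of all 5 in 20 of 23 members, against 23.5% of all measured genes. Dynamic suspension and conventional 3D culture lay far above shControl, with medians of 2.98 and 1.91, and the library labelled overexpression was level with it (0.00). Both plain-count libraries lay below the 3 others in 11 of the 23, against 13.8% of all measured genes, and the part of the kind of column in this result was not tested.

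Among 21 interferon receptors, sensors and signal factors 4 were lower and 0 higher, with a median of 0.13 (GC-centred -0.19). That share of lower genes was near the 15.7% of all measured genes. The RNA sensor genes Ifih1 and Ddx58, which encode MDA5 and RIG-I, were 1.97 and 12.5 CPM under the knockdown label against 7.501 and 26.8 CPM in shControl. Irf9 (shared sequence) was 4.79 CPM under the knockdown label against 9.77 CPM in shControl. Of 14 MHC class I genes 5 were lower and 0 higher (median -0.88, GC-centred -0.78). B2m, the light chain of class I molecules, was 160.3 CPM under the knockdown label, 287 under the overexpression label, 895 in dynamic suspension, 788 in conventional 3D culture and 409.6 in shControl (log2 ratio -1.35, GC-centred -0.71). The peptide transporter genes Tap1 and Tap2 and the peptide trimmer Erap1 (all shared sequence) were 2.69, 1.31 and 6.69 CPM under the knockdown label against 6.84, 3.799 and 15.5 CPM in shControl. Among 15 chemokine, cytokine and NF-kappaB genes 5 were lower and 0 higher (median 0.00, GC-centred -0.24). The 5 lower ones encode secreted factors. Ccl5, a T-cell attractant, was 0.328 CPM under the knockdown label against 6.98 CPM in shControl. Lif, a cytokine of the interleukin-6 family, was 1.97 CPM under the knockdown label against 20.3 CPM in shControl. Cxcl10 (shared sequence), an interferon-induced chemokine, was 11.4 CPM under the knockdown label against 35.8 CPM in shControl. Spp1 (shared sequence), which encodes osteopontin, was 0.263 CPM under the knockdown label against 30.9 CPM in shControl. The other 3 libraries had 2.98 CPM under the overexpression label, 102 in dynamic suspension and 13.7 in conventional 3D culture. Cxcl1, a neutrophil attractant, had 0 counts in the library labelled knockdown and 11.5 CPM in shControl, at least 58.3-fold lower by the floor of 3 counts. It also had 0 counts in the library labelled overexpression, the other one of plain counts. In 6 of these 15 chemokine, cytokine and NF-kappaB genes both plain-count libraries lay below the 3 others, against 13.8% of all measured genes. The part of the kind of column there was not tested.

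The interferon-stimulated response element was searched as GAAANNGAA on both strands. It stood in 16 of 26 interferon-stimulated genes with a promoter (61.5%), in 4 of 17 MHC class I genes (23.5%) and in 6.97% of measured genes. The stretches below come from 5 genes lower in the library labelled knockdown, with matches in capitals that begin 38 (Gbp3, chr3:142559966-142560043, plus strand), 64 (Irgm2, chr11:58214873-58214961, plus strand), 84 (Ifit1, chr19:34640765-34640853, plus strand), 66 (Isg15, chr4:156200836-156200924, minus strand) and 139 bases (B2m, chr2:122147508-122147596, plus strand) before the start, counted to the nearest match.
Gbp3: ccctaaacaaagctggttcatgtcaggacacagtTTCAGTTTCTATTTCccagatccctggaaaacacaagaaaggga
Irgm2: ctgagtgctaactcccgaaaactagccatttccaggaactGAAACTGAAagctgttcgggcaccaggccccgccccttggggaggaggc
Ifit1: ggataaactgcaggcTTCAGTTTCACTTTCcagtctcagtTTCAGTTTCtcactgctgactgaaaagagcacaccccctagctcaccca
Isg15: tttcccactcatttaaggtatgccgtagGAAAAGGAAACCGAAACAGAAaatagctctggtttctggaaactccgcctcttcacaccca
B2m: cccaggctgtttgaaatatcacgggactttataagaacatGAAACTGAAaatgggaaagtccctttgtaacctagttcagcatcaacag
Ifit1 and Isg15 carry 3 overlapping or neighbouring matches each and Gbp3 carries 2. Ifit1 (shared sequence), an antiviral RNA-binding protein, was 1.51 CPM under the knockdown label against 8.02 CPM in shControl. Isg15 (shared sequence), a ubiquitin-like modifier, was 1.31 CPM under the knockdown label against 3.77 CPM in shControl. Trim25, which was higher, also has the element in its promoter.

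Pigment cell genes were lower in part. MITF is the master regulator of melanocytes and binds an M-box in the promoters of melanin enzymes, which sit in melanosomes together with structural and transport proteins. Of 23 melanin enzyme and melanosome genes 6 were lower and 0 higher (median -0.65, GC-centred -0.70). Tyr, which encodes tyrosinase, the enzyme that starts melanin synthesis, was 364 CPM under the knockdown label, 1378 under the overexpression label, 1009 in dynamic suspension, 1259.7 in conventional 3D culture and 942 in shControl (log2 ratio -1.37, GC-centred -0.70). Mlana, a melanosome protein, was 559 CPM under the knockdown label against 1219 CPM in shControl, and the other 3 had 375 CPM under the overexpression label, 385 in dynamic suspension and 482 in conventional 3D culture, so that shControl was the highest there, whereas for Tyr the library labelled knockdown was the lowest. Gpr143, the receptor mutated in ocular albinism, was 19.4 CPM under the knockdown label against 43.4 CPM in shControl. Trpm1 (shared sequence), a melanocyte ion channel, was 15.6 CPM under the knockdown label, 252 under the overexpression label, 467 in dynamic suspension, 528 in conventional 3D culture and 339 in shControl (log2 ratio -4.43), the lowest of the 5 by a wide margin. Slc24a5 (shared sequence), a melanosomal ion exchanger, was 187 CPM under the knockdown label against 611 CPM in shControl. Tyrp1 and Dct, the other melanin enzymes, did not pass 2-fold, at 4789.6 and 4345 CPM under the knockdown label against 9013 and 6397 CPM in shControl. Bloc1s1 (shared sequence) had 2 counts in the library labelled knockdown, a ratio of shControl to it of 137 (interval 37.9 to 1135), and was as low in the library labelled overexpression. Among 10 melanocyte regulators and receptors 2 were lower, Mitf and Kit, and 0 higher (median -0.08, GC-centred -0.32), near the 15.7% lower of all measured genes. Mitf was 139 CPM under the knockdown label, 158 under the overexpression label, 350.4 in dynamic suspension, 344 in conventional 3D culture and 314 in shControl (log2 ratio -1.17, GC-centred -0.97). Kit, the stem cell factor receptor, was 1.44 CPM under the knockdown label against 4.84 CPM in shControl. Sox10, a neural crest factor upstream of Mitf, was 695 CPM under the knockdown label against 487 CPM in shControl (log2 ratio 0.51).

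The core of the M-box, CATGTG on either strand, stood in 8 of 18 melanosome genes with a promoter (44.4%) and in 8.82% of measured genes. It is shown in 4 genes of the melanocyte membrane and melanin synthesis, where it begins 141 (Trpm1, chr7:64153654-64153739, plus strand), 21 (Tyr, chr7:87493513-87493573, minus strand), 46 (Tyrp1, chr4:80834127-80834212, plus strand) and 150 bases (Dct, chr14:118052351-118052436, minus strand) before the start.
Trpm1: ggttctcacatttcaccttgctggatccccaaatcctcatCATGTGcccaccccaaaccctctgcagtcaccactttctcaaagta
Tyr: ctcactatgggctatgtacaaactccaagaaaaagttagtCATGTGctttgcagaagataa
Tyrp1: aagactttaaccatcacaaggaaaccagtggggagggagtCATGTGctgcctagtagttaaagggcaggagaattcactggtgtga
Dct: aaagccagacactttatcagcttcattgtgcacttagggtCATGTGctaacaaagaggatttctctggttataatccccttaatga
In all 4 the core is followed by a C, and in Tyr, Tyrp1 and Dct it is preceded by GT. Despite this shared core the log2 ratios ran from -4.43 for Trpm1 through -1.37 for Tyr and -0.91 for Tyrp1 to -0.56 for Dct.

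Most hypoxia targets did not pass 2-fold between the 2 libraries. In glycolysis 3 of 22 targets were higher and 1 lower (median 0.45), but the GC-centred median was 0.08, with 0 higher and 2 lower. Slc16a3, the lactate exporter, was 104 CPM under the knockdown label, 258 under the overexpression label, 191 in dynamic suspension, 293 in conventional 3D culture and 39.1 in shControl (log2 ratio 1.41). Ldha (shared sequence), lactate dehydrogenase, was 2212 CPM under the knockdown label against 1101 CPM in shControl. Pfkfb4, a regulator of phosphofructokinase, was 7.02 CPM under the knockdown label against 2.71 CPM in shControl. Gapdh (shared sequence), a glycolytic dehydrogenase with many pseudogene copies, was 200.4 CPM under the knockdown label against 414 CPM in shControl. Eno2, a neural enolase isoform, was 11.1 CPM under the knockdown label against 21.9 CPM in shControl (log2 ratio -0.98). shControl was the lowest of the 5 libraries in 15 of 22 glycolytic targets, and the library labelled knockdown in 6. Medians over shControl were 0.86, 1.45 and 0.88 in the libraries labelled overexpression, dynamic suspension and conventional 3D, so the 2 compared libraries were the lowest 2 by this measure as they were for Hif1a.

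Outside glycolysis 5 of 29 hypoxia targets were higher and 3 lower (median 0.06, GC-centred -0.09). Ndrg1 (shared sequence), a differentiation gene, was 79.02 CPM under the knockdown label against 25.9 CPM in shControl. Ccng2, an unconventional cyclin, was 25.005 CPM under the knockdown label against 9.82 CPM in shControl. Ak4 (shared sequence), a mitochondrial adenylate kinase, was 36.7 CPM under the knockdown label against 15.9 CPM in shControl. Ddit4, an inhibitor of mTOR, was 96.5 CPM under the knockdown label against 44.7 CPM in shControl. Bhlhe41 (shared sequence), a transcriptional repressor, was 62.2 CPM under the knockdown label against 183 CPM in shControl. Loxl2 (shared sequence), a collagen cross-linking oxidase, was 7.68 CPM under the knockdown label against 16.1 CPM in shControl. The classical targets Vegfa and Adm did not pass 2-fold, at 72.98 and 5.45 CPM under the knockdown label against 43.6 and 10.1 CPM in shControl. The hypoxia element core ACGTG occurred in 10 of 21 glycolytic targets with a promoter (47.6%), 14 of 23 others (60.9%) and 25.8% of measured genes. It is shown in 4 targets that were higher, with the nearest match beginning 14 (Slc16a3, chr11:120949013-120949066, plus strand), 34 (Ldha, chr7:46845730-46845803, plus strand), 213 (Ak4, chr4:101419453-101419534, plus strand) and 187 bases (Ddit4, chr10:59951913-59951997, minus strand) before the start.
Slc16a3: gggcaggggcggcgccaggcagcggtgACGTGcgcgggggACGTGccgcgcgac
Ldha: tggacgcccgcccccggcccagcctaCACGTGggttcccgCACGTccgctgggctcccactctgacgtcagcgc
Ak4: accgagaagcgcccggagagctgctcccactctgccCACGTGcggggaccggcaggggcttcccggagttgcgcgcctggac
Ddit4: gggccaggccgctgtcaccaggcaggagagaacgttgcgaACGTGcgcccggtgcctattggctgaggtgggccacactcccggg
Where the capitals read CACGTG, the core occurs on both strands at once. Bhlhe41, which was lower, has the core in its promoter as well.

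**Figure D3:**
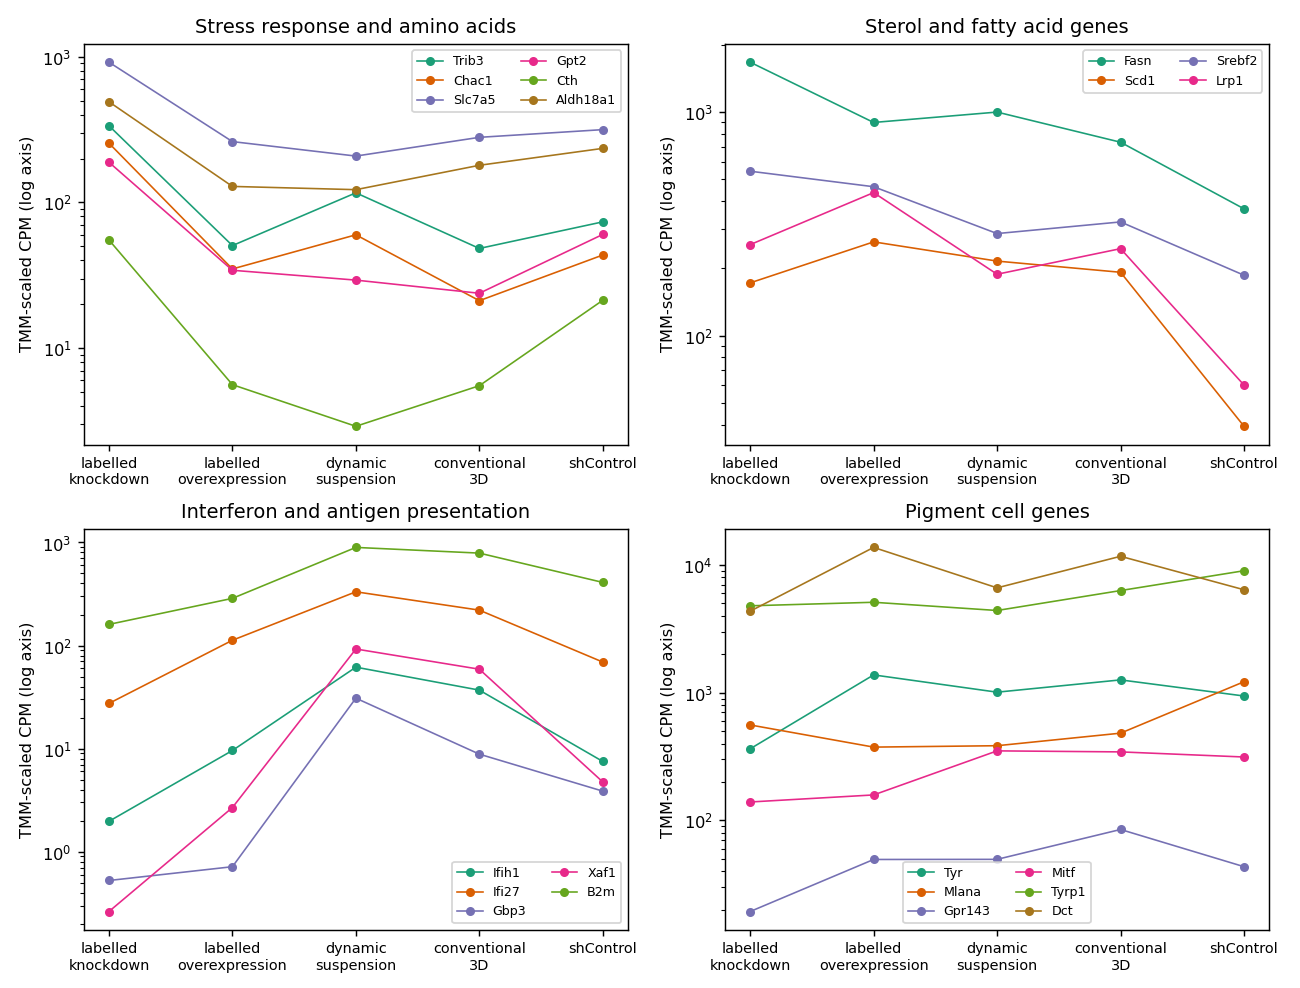
Levels of genes from 4 programmes in the 5 libraries, as TMM-scaled CPM on a log axis, with lines joining the values of 1 gene. Stress and amino acid genes peak in the library labelled knockdown, with Trib3 at 336 CPM there and 73.5 CPM in shControl. Fasn and the other lipid genes are lowest in shControl, at 369.5 CPM for Fasn, interferon genes are lowest in the library labelled knockdown, and pigment cell genes differ gene by gene.

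Matrix genes were called in both directions. Basement membranes are built of laminins, type IV collagen, nidogens and perlecan, while fibrillar collagens, decorin and biglycan form the interstitial matrix that fibroblasts typically make. Of 28 collagen, laminin and glycoprotein genes 5 were higher and 12 lower (median -0.44, GC-centred -0.81). The 5 higher genes encode basement membrane proteins, a grouping made after their values were seen. Hspg2, which encodes perlecan, was 526 CPM under the knockdown label, 352 under the overexpression label, 261 in dynamic suspension, 219 in conventional 3D culture and 128 in shControl (log2 ratio 2.04). The laminin genes Lama5 and Lamc1 were 112 and 348 CPM under the knockdown label against 29.6 and 174 CPM in shControl. Col4a1 (shared sequence) was 90.4 CPM under the knockdown label against 43.3 CPM in shControl. Nid2 (shared sequence) was 2.82 CPM under the knockdown label against 0.763 CPM in shControl. Nid1 (shared sequence), the relative of Nid2, was among the lower genes (log2 ratio -1.38). Col1a2 was 2.17 CPM under the knockdown label, 0 under the overexpression label, 8.16 in dynamic suspension, 35.2 in conventional 3D culture and 11.02 in shControl (log2 ratio -2.32). Dcn, Bgn, Col5a2, Tnc (shared sequence) and Fbn1 (shared sequence) had 0 counts in the library labelled knockdown and 2.45 to 5.50 CPM in shControl. By the floor of 3 counts Bgn was at least 27.95-fold lower, Col5a2 at least 17.8-fold and Dcn at least 12.7-fold. With all such genes at their bound the list's median was unchanged, at -0.44. With the minimum mean raised to 10 CPM the median was 0.90, on the other side of 0, so the list's negative median came from its genes of low level. Col1a1, the partner chain of Col1a2, was 5.78 CPM under the knockdown label against 8.15 CPM in shControl (log2 ratio -0.49). Sparc, a collagen chaperone, was 1345 CPM under the knockdown label against 2140.2 CPM in shControl. Sparcl1, a secreted relative of Sparc, was 25.005 CPM under the knockdown label, 170.2 under the overexpression label, 221 in dynamic suspension, 163 in conventional 3D culture and 144 in shControl, lowest in the library labelled knockdown.

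Several of the lower matrix genes were at 0 or near it in the other plain-count library as well. Dcn, Bgn and Col5a2 had 0 counts in the library labelled overexpression and 2.50 to 19.6 CPM in the 3 estimated-count libraries. In all, 144 measured genes had 0 counts in the library labelled knockdown, of which 131 share sequence. All 12 that are protein-coding and of own sequence had 0 counts in the library labelled overexpression too, namely the secreted or matrix genes Cxcl1, Bgn, Thbs2, Col5a2, Fbln2, Igfbp5 and Dcn, the smooth muscle actin gene Acta2, and Gap43, Rtn1, Ptprz1 and Dcx, which are best known from neurons and glia. Of the 8 fibroblast markers, 3 were at 0 in the library labelled knockdown (Dcn, Lum and Thy1) and none in shControl, and their summed levels were 35.6 and 38.4 CPM. Pdgfrb alone, a receptor of fibroblasts and pericytes, gave 24.6 CPM in the library labelled knockdown, against 5.91 CPM in shControl. In pooled bulk cultures, fewer cells of a type and less RNA per cell cannot be told apart. The part of fibroblast-type genes or of the kind of column in this result was not tested.

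**Figure D4:**
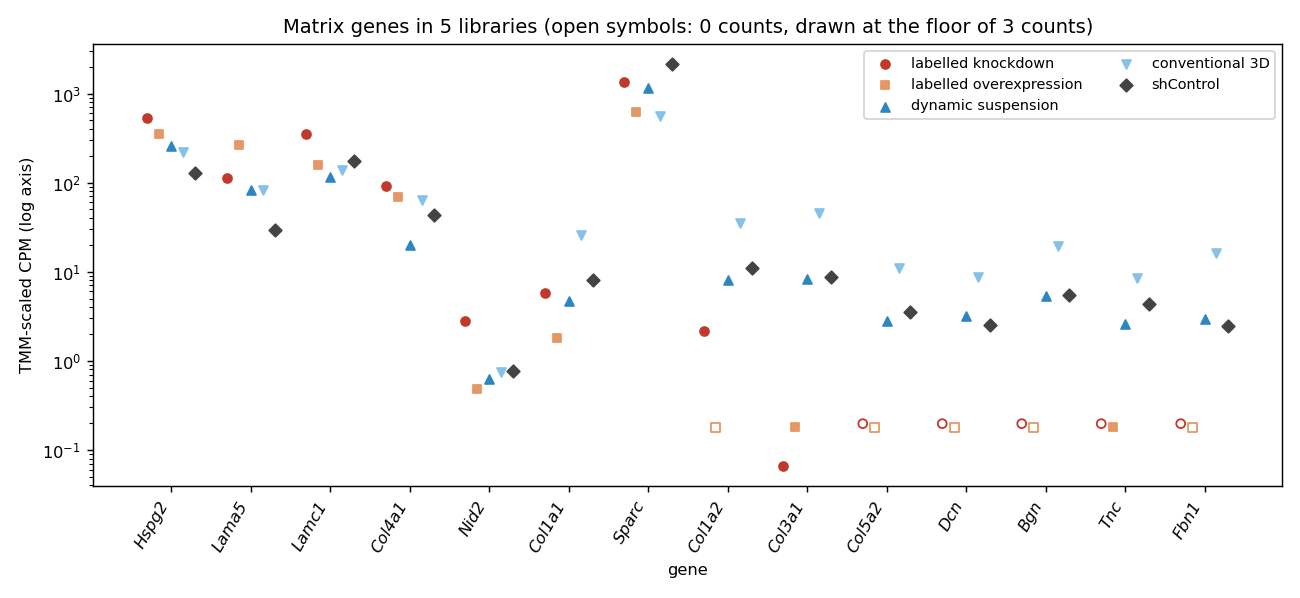
Levels of 14 matrix genes in the 5 libraries, as TMM-scaled CPM on a log axis. Open symbols mark 0 counts, drawn at the level of 3 counts. The 5 genes at the left are higher in the library labelled knockdown (526 CPM for Hspg2) than in shControl (128 CPM), while Col3a1, Col5a2, Dcn, Bgn, Tnc and Fbn1 at the right are at or near 0 in both plain-count libraries.

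The 12 largest ratios among protein-coding genes of own sequence with a mean of at least 10 CPM belonged to genes of varied function, Chac1 among them. Sorcs2 (GRCm38 chromosome 5, 36017180 to 36398139), a sortilin-family receptor of neurotrophins, was 25.8 CPM under the knockdown label, 1.91 under the overexpression label, 1.14 in dynamic suspension, 0.244 in conventional 3D culture and 0.9904 in shControl (log2 ratio 4.64, interval 4.31 to 5.12). Fscn1 (chromosome 5, 142960343 to 142973185), the actin-bundling protein fascin of invasive protrusions, was 51.3 CPM under the knockdown label against 4.35 CPM in shControl (log2 ratio 3.54, GC-centred 2.73), and the other 3 had 9.47 CPM under the overexpression label, 5.99 in dynamic suspension and 5.86 in conventional 3D culture. Kank4 (chromosome 4, 98754898 to 98817537), a cortical adaptor, was 116 CPM under the knockdown label against 15.2 CPM in shControl and at most 6.72 CPM in the other 3. Masp1, a protease of the complement lectin pathway, was 99.3 CPM under the knockdown label against 15.9 CPM in shControl. Plvap, an endothelial diaphragm protein, was 26.6 CPM under the knockdown label against 4.3999 CPM in shControl. Ier5l, Nipal4 and Reep6 were 24.9, 30.6 and 17.7 CPM under the knockdown label against 3.64, 4.51 and 3.12 CPM in shControl. Mbp, the myelin basic protein gene, was 137 CPM under the knockdown label against 17.99 CPM in shControl. Soga1 was 93.5 CPM under the knockdown label against 15.2 CPM in shControl. Hipk2, a kinase of p53 and of transcription factors, was 159.9 CPM under the knockdown label, 108 under the overexpression label, 117 in dynamic suspension, 82.2 in conventional 3D culture and 22.2 in shControl. For all 12 the library labelled knockdown was the highest of the 5, and for Fscn1, Mbp, Hipk2, Soga1 and Reep6 shControl was also the lowest. Below these 12, Peg10, an imprinted retrotransposon-derived gene, was 268 CPM under the knockdown label against 61.8 CPM in shControl. Adssl1, a muscle purine enzyme, was 42.1 CPM under the knockdown label, 74.2 under the overexpression label, 37.7 in dynamic suspension, 69.6 in conventional 3D culture and 8.04 in shControl, with shControl the lowest and the library labelled knockdown not the highest.

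At the low end, Wdr74 (chromosome 19, 8735827 to 8740624), a ribosome assembly factor, was 0.263 CPM under the knockdown label, 0 under the overexpression label, 18.4 in dynamic suspension, 22.9 in conventional 3D culture and 33.3 in shControl, which again follows the kind of column. Lgals3 (chromosome 14, 47367751 to 47386160), the galectin-3 gene, was 24.7 CPM under the knockdown label, 16.5 under the overexpression label, 301 in dynamic suspension, 32.5 in conventional 3D culture and 303 in shControl (log2 ratio -3.61). There the library labelled knockdown was close to conventional 3D culture and the library labelled overexpression, and shControl to dynamic suspension. Mgarp, a mitochondrial transport adaptor, was 8.4005 CPM under the knockdown label against 64.3 CPM in shControl. Sema7a, a membrane-anchored semaphorin, was 5.91 CPM under the knockdown label against 35.2 CPM in shControl. Pggt1b, a prenyltransferase subunit, was 5.97 CPM under the knockdown label against 34.5 CPM in shControl. Several lower genes act in the nucleus: Pnisr and Nsrp1, which are linked to splicing, were 15.6 and 4.59 CPM under the knockdown label against 72.6 and 24.7 CPM in shControl, and the zinc finger genes Zfp871 and Zfp948 14.04 and 4.86 CPM under the knockdown label against 70.1 and 23.1 CPM in shControl. Among abundant genes, Ptgds, a prostaglandin synthase, was 151 CPM under the knockdown label, 1109 under the overexpression label, 3224 in dynamic suspension, 1624 in conventional 3D culture and 468 in shControl, the lowest of the 5 in the library labelled knockdown. Ablim1, an actin-binding LIM protein, was 10.5 CPM under the knockdown label against 35.9 CPM in shControl. The other 3 libraries had 117 CPM under the overexpression label, 164 in dynamic suspension and 299 in conventional 3D culture. Cdh19, a cadherin of the neural crest lineage, was 16.5 CPM under the knockdown label against 55.4 CPM in shControl. Cd109, a TGF-beta co-receptor, was 28.6 CPM under the knockdown label against 90.03 CPM in shControl.

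Which library stood apart differed from gene to gene. Of the 599 higher own-sequence genes, the library labelled knockdown lay above all 3 other libraries in 407 and shControl below all 3 in 313, with 152 in both sets and 31 in neither. By at least 2-fold these numbers were 140 and 89. Of the 478 lower genes the library labelled knockdown lay below all 3 in 328 and shControl above all 3 in 203, with 86 in both sets and 33 in neither, and 168 and 58 by at least 2-fold. Because these genes were chosen by this ratio, extreme ranks of either compared library are favoured by the choice itself. Over all measured own-sequence genes the library labelled knockdown was the highest of the series in 31.1% and the lowest in 21.3%. There shControl was the highest in 16.7% and the lowest in 24.7%. How far the counts go beyond the effect of the choice was not tested.

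The actin, tubulin, integrin and semaphorin lists held calls in both directions. Of 37 actin genes 7 were higher and 2 lower (median 0.13, GC-centred -0.09). Tln2, which links integrins to actin, was 197 CPM under the knockdown label against 70.8 CPM in shControl. Tpm2, a tropomyosin, was 3.68 CPM under the knockdown label against 1.14 CPM in shControl. Arpc3, an Arp2/3 subunit, was 143 CPM under the knockdown label against 318 CPM in shControl. Among 22 tubulins and motors 4 were higher and 1 lower (median 0.26, GC-centred 0.08). Tubb3, the neuronal tubulin gene, was 365 CPM under the knockdown label against 146 CPM in shControl. Dync1h1 (shared sequence), the dynein heavy chain, was 1039 CPM under the knockdown label against 329 CPM in shControl. Cfap43 (shared sequence), a protein of cilia, was 34.8 CPM under the knockdown label against 0.682 CPM in shControl. It was 8.81 CPM under the overexpression label, 0.695 in dynamic suspension and 0.583 in conventional 3D culture. Both plain-count libraries thus lay above the 3 others for Cfap43. Tubb2b (shared sequence) was 1.05 CPM under the knockdown label against 17.3 CPM in shControl, near its 0.834 CPM in the library labelled overexpression. In the integrin list 3 of 18 were higher and 3 lower (median 0.11, GC-centred 0.12). Itga6 and Itgb5, integrin chains, were 131 and 175 CPM under the knockdown label against 63.8 and 66.6 CPM in shControl. Itgb4 (shared sequence), the laminin-binding partner of Itga6, was 7.15 CPM under the knockdown label against 1.15 CPM in shControl. Ilk (shared sequence) and Lims1, partners in 1 adhesion complex, were 1.05 and 51.6 CPM under the knockdown label against 92.1 and 112 CPM in shControl. Ilk was 0.357 CPM under the overexpression label, 68.04 in dynamic suspension and 99.4 in conventional 3D culture. Its split thus follows the kind of column. Among matrix proteases and inhibitors 0 of 19 were higher and 5 lower (median -0.22, GC-centred -0.47), with Hpse, heparanase, at 11.3 CPM under the knockdown label, 1136 under the overexpression label, 349.8 in dynamic suspension, 997 in conventional 3D culture and 28.9 in shControl. Timp1, a protease inhibitor, was 7.42 CPM under the knockdown label against 15.4 CPM in shControl. Semaphorins and their receptors had 4 of 20 higher and 3 lower (median 0.36, GC-centred 0.06). The ligand genes Sema6b and Sema4d were 36.8 and 26.4 CPM under the knockdown label against 9.06 and 9.56 CPM in shControl. Plxnb2, a receptor, was 1136 CPM under the knockdown label against 550.0 CPM in shControl.

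The medians of mitosis and of replication genes lay on opposite sides of 0. Of 28 mitosis and spindle genes 6 were lower and 0 higher (median -0.33, GC-centred -0.40), all 6 of own sequence. Cenpf, a kinetochore protein, was 20.1 CPM under the knockdown label, 8.99 under the overexpression label, 4.87 in dynamic suspension, 18.6 in conventional 3D culture and 66.6 in shControl (log2 ratio -1.73). Bub1, a checkpoint kinase, was 38.6 CPM under the knockdown label against 109 CPM in shControl. Smc4, a condensin subunit, was 66.02 CPM under the knockdown label against 169 CPM in shControl. Cenpe, a kinetochore motor, was 20.1 CPM under the knockdown label against 51.6 CPM in shControl. Mki67, the proliferation marker, was 112 CPM under the knockdown label against 283 CPM in shControl. shControl was the highest of the 5 libraries in 21 of 28 and the library labelled knockdown in the other 7. Genes of DNA replication and repair had 2 of 31 higher and 1 lower (median 0.40, GC-centred 0.24). Cdt1, a licensing factor, was 256 CPM under the knockdown label, 29.2 under the overexpression label, 10.4 in dynamic suspension, 26.9 in conventional 3D culture and 101 in shControl. Pole (shared sequence), a replicative polymerase, was 117 CPM under the knockdown label against 56.2 CPM in shControl. Atr (shared sequence), a damage kinase, was 10.6 CPM under the knockdown label against 26.2 CPM in shControl. The library labelled knockdown was the highest of the 5 in 20 of these 31 genes and shControl in 8. Over shControl, the replication list had medians of -2.24, -2.92 and -1.70 in the libraries labelled overexpression, dynamic suspension and conventional 3D. Among G1 genes 2 of 22 were higher and 0 lower (median 0.32, GC-centred 0.13). With GC-centring 0 were higher and 0 lower. E2f1, a driver of S-phase entry, was 119 CPM under the knockdown label against 46.6 CPM in shControl. E2f7 (shared sequence), its repressing relative, was 31.5 CPM under the knockdown label against 14.2 CPM in shControl.

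The p53 lists held calls in shares below the background in both directions. The 30 p53 targets comprised 2 higher and 4 lower genes (median -0.11, GC-centred -0.40), and of 17 p53 regulators 1 was higher and 1 lower (median 0.04, GC-centred 0.13). Trp53 (shared sequence) was 283 CPM under the knockdown label against 201 CPM in shControl. Mdm2, its ubiquitin ligase, was 82.8 CPM under the knockdown label against 114 CPM in shControl. Bbc3, the pro-apoptotic PUMA gene, was 49.7 CPM under the knockdown label, 22.5 under the overexpression label, 6.72 in dynamic suspension, 7.103 in conventional 3D culture and 14.1 in shControl (log2 ratio 1.81). Trp53inp1, a stress-induced nuclear protein, was 49.3 CPM under the knockdown label against 113 CPM in shControl. Ccng1, a cyclin-like target, was 226 CPM under the knockdown label against 473 CPM in shControl. Eda2r, a death receptor relative, was 0.788 CPM under the knockdown label against 1.85 CPM in shControl. Among 24 BCL2 family and caspase genes 1 was higher, Bbc3, and 4 were lower (median 0.00, GC-centred -0.20). Diablo and Cycs (both shared sequence), which are released from mitochondria in apoptosis, were 5.12 and 215 CPM under the knockdown label against 46.9 and 669.7 CPM in shControl. Under the overexpression label they were 7.86 and 186 CPM, in dynamic suspension 51.5 and 354 and in conventional 3D culture 35.4 and 350. For both genes the 2 plain-count libraries thus lay below the 3 others. Bcl2 (shared sequence), the survival gene, was 13.9 CPM under the knockdown label against 30.1 CPM in shControl. Stem-like and drug efflux markers had 1 of 13 higher, Itga6, and 1 lower, Bmi1 (median 0.26, GC-centred 0.11). Bmi1 (shared sequence) was 59.7 CPM under the knockdown label against 119.9 CPM in shControl.

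Signalling lists were mostly shifted by less than 0.5 on the log2 scale, and GC-centring brought several medians close to 0. It also left fewer genes higher beyond 2-fold: 2 Notch, 1 Wnt, 3 TGF-beta and BMP, 1 Hippo, 1 YAP and TEAD target and 1 MAPK gene. Those lower under that centring numbered 2, 1, 1, 0, 2 and 1 in the same order. Notch genes had 4 of 23 measured members higher and 0 lower beyond 2-fold (median log2 ratio 0.48, GC-centred -0.01). Notch1 (shared sequence) was 20.1 CPM under the knockdown label, 10.5 under the overexpression label, 4.44 in dynamic suspension, 3.85 in conventional 3D culture and 3.96 in shControl. Mfng, a fringe glycosyltransferase that tunes Notch, was 4.66 CPM under the knockdown label against 1.48 CPM in shControl. Maml3, a coactivator, was 23.1 CPM under the knockdown label against 10.7 CPM in shControl. The target gene Hes1 was 4.07 CPM under the knockdown label against 6.88 CPM in shControl. Wnt genes had 4 of 25 measured members higher and 0 lower beyond 2-fold (median log2 ratio 0.40, GC-centred 0.14). Tcf7, a transcription factor of the pathway, was 10.6 CPM under the knockdown label against 3.99 CPM in shControl. The receptor genes Fzd7 and Fzd2 were 169 and 28.02 CPM under the knockdown label against 75.5 and 12.9 CPM in shControl. TGF-beta and BMP genes had 6 of 30 measured members higher and 1 lower beyond 2-fold (median log2 ratio 0.32, GC-centred 0.15). Acvr2b, an activin receptor, was 9.38 CPM under the knockdown label against 2.99 CPM in shControl. Smad4, the shared mediator, was 126 CPM under the knockdown label against 55.997 CPM in shControl. Ski, a repressor of SMADs, was 228 CPM under the knockdown label against 87.9 CPM in shControl. Skil, its relative, was 8.33 CPM under the knockdown label against 17.03 CPM in shControl. Hippo components had 2 of 20 measured members higher and 1 lower beyond 2-fold (median log2 ratio 0.32, GC-centred 0.21). Tead3 was 24.7 CPM under the knockdown label against 8.54 CPM in shControl. Mob1b was 15.9 CPM under the knockdown label against 41.9 CPM in shControl. YAP and TEAD targets had 5 of 17 measured members higher and 3 lower beyond 2-fold (median log2 ratio 0.47, GC-centred 0.08). The junction protein genes Ajuba and Amotl1 were 105 and 409 CPM under the knockdown label against 45.2 and 196 CPM in shControl. The classical target Ccn2 (shared sequence) was 3.41 CPM under the knockdown label against 23.1 CPM in shControl. F3, which encodes tissue factor, was 15.03 CPM under the knockdown label against 39.99 CPM in shControl. In the MAPK list, 4 of 26 were higher, all feedback or output genes, and 0 lower (median 0.19, GC-centred 0.09). Etv4 and Etv5 (shared sequence), transcription factors induced by ERK, were 18.97 and 78.5 CPM under the knockdown label against 6.92 and 24.6 CPM in shControl. Dusp4, a phosphatase of ERK, was 218 CPM under the knockdown label against 102 CPM in shControl. Spry1 (shared sequence), an inhibitor of the pathway, was 23.2 CPM under the knockdown label against 10.2 CPM in shControl. The library labelled knockdown was the highest of all 5 for Etv4 and Etv5, and Etv4 stood at 4.17 CPM under the overexpression label, 0.0662 in dynamic suspension and 0.883 in conventional 3D culture.

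Immediate early genes had 4 of 18 measured members higher and 1 lower beyond 2-fold (median log2 ratio 0.48, GC-centred -0.02). With GC-centring 0 were higher and 1 lower. Ier2 was 68.1 CPM under the knockdown label against 24.6 CPM in shControl. Ier5 was 29.9 CPM under the knockdown label against 13.8 CPM in shControl. Fos, an AP-1 subunit, was 5.32 CPM under the knockdown label against 11.2 CPM in shControl, with 91.4 CPM in dynamic suspension. In the mTOR, PI3K and AKT list, 4 genes were higher and 4 lower of 24 (median 0.38, GC-centred 0.11). Insr, the insulin receptor, was 48.1 CPM under the knockdown label against 20.2 CPM in shControl. Irs2 (shared sequence), its substrate, was 37.3 CPM under the knockdown label against 12.6 CPM in shControl. Mtor was 129.8 CPM under the knockdown label against 60.9 CPM in shControl. Rictor, the defining subunit of the second mTOR complex, was 30.8 CPM under the knockdown label against 82.9 CPM in shControl. After GC-centring 2 were higher and 2 lower. The Myc network had 2 of 10 measured members higher and 0 lower beyond 2-fold (median log2 ratio 0.41, GC-centred 0.12). Mxd3 and Mxi1 (both shared sequence), repressors that compete with Myc for Max, were 43.4 and 50.7 CPM under the knockdown label against 14.4 and 24.1 CPM in shControl.

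Apart from the demethylases, chromatin lists held calls in shares below the backgrounds of 8.05% higher and 15.7% lower. Oxygen-dependent demethylases, which need oxygen and iron as HIF hydroxylases do, had 3 of 22 measured members higher and 1 lower beyond 2-fold (median log2 ratio 0.48, GC-centred 0.36). Tet3, a DNA demethylase, was 238 CPM under the knockdown label, 103 under the overexpression label, 73.99 in dynamic suspension, 67.7 in conventional 3D culture and 73.1 in shControl (log2 ratio 1.71). Jmjd1c, a histone demethylase relative, was 33.4 CPM under the knockdown label against 83.1 CPM in shControl. Histone methyltransferases and acetyltransferases had 2 of 31 measured members higher and 1 lower beyond 2-fold (median log2 ratio 0.21, GC-centred 0.02). Kmt2d and Kmt2a (shared sequence) were 127 and 113 CPM under the knockdown label against 52.2 and 32.5 CPM in shControl. Setd2 was 30.6 CPM under the knockdown label against 65.3 CPM in shControl. Remodellers and Mediator had 2 of 31 measured members higher and 3 lower beyond 2-fold (median log2 ratio 0.42, GC-centred 0.16). Arid1a and Arid1b, subunits of the BAF complex, were 218 and 115 CPM under the knockdown label against 107 and 50.2 CPM in shControl. Atrx was 73.1 CPM under the knockdown label against 204 CPM in shControl. The other 3 libraries had 359.6 CPM under the overexpression label, 238 in dynamic suspension and 193 in conventional 3D culture. Splicing factors had 1 of 29 measured members higher and 7 lower beyond 2-fold (median log2 ratio -0.21, GC-centred -0.10). Their share of lower genes was above the background of 15.7%, and among 9 members of own sequence 1 was higher and 2 lower. With GC-centring 0 of the 29 were higher and 3 lower, a share of lower genes below the 15.2% of all measured genes under that centring. Hnrnpa2b1, an RNA-binding protein, was 671 CPM under the knockdown label against 1425 CPM in shControl. Clk1, a kinase of splicing factors, was 21.3 CPM under the knockdown label against 62.98 CPM in shControl. Prpf8, the core of the spliceosome, was 898 CPM under the knockdown label against 443 CPM in shControl. Outside the list Hnrnph1, a related splicing regulator, was 113 CPM under the knockdown label against 415 CPM in shControl. shControl was the highest of the 5 libraries in 16 of 29 splicing factors.

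Housekeeping lists had medians between -0.39 and 0.28. No proteasome subunit of 31 passed 2-fold (median -0.03, GC-centred -0.19), with log2 ratios between -0.88 and 0.46. Nuclear-encoded respiratory chain subunits had 2 of 73 measured members higher and 7 lower beyond 2-fold (median log2 ratio -0.07, GC-centred -0.33). Mitochondrial ribosomal proteins had 3 of 75 measured members higher and 4 lower beyond 2-fold (median log2 ratio -0.05, GC-centred -0.19). All these lower genes share sequence: of the 35 and 36 members of own sequence, 0 were lower. Cytosolic ribosomal proteins had 7 of 79 measured members higher and 8 lower beyond 2-fold (median log2 ratio 0.14, GC-centred -0.05), but only 8 of 79 are of own sequence, and of these 1 was higher and 1 lower. Rpl39 was 307 CPM under the knockdown label against 132 CPM in shControl. Rpl35a was 123 CPM under the knockdown label against 249 CPM in shControl. Translation initiation factors had 3 of 27 lower and 0 higher (median -0.01, GC-centred -0.08), among them Eif3a, a scaffold of eIF3, at 199 CPM under the knockdown label, 294 under the overexpression label, 305 in dynamic suspension, 283 in conventional 3D culture and 594 in shControl. Endoplasmic reticulum folding genes had 1 of 28 measured members higher and 3 lower beyond 2-fold (median log2 ratio -0.39, GC-centred -0.50). Among the 18 of own sequence 1 was higher and 0 lower (median -0.14). Herpud1, a degradation factor, was 219 CPM under the knockdown label against 88.8 CPM in shControl. Hsp90b1 (shared sequence), an abundant chaperone, was 217 CPM under the knockdown label against 1248 CPM in shControl. Heat shock proteins had 1 of 19 measured members higher and 3 lower beyond 2-fold (median log2 ratio -0.16, GC-centred -0.23). Lysosome and V-ATPase genes had 0 of 29 measured members higher and 4 lower beyond 2-fold (median log2 ratio -0.29, GC-centred -0.33). Among the 17 of own sequence 1 was lower, with a median of 0.01. The library labelled knockdown was the lowest of the 5 in 13 of the 29, including Atp6ap2 (52.9 CPM under the knockdown label against 129.6 CPM in shControl). NRF2 and antioxidant genes had 5 of 24 measured members higher and 1 lower beyond 2-fold (median log2 ratio 0.28, GC-centred 0.25). Gsr, glutathione reductase, was 105 CPM under the knockdown label against 45.3 CPM in shControl. Gpx1, a glutathione peroxidase, was 305 CPM under the knockdown label against 131 CPM in shControl. Nqo1, a quinone reductase, was 4.46 CPM under the knockdown label against 1.8996 CPM in shControl.

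**Figure D5:**
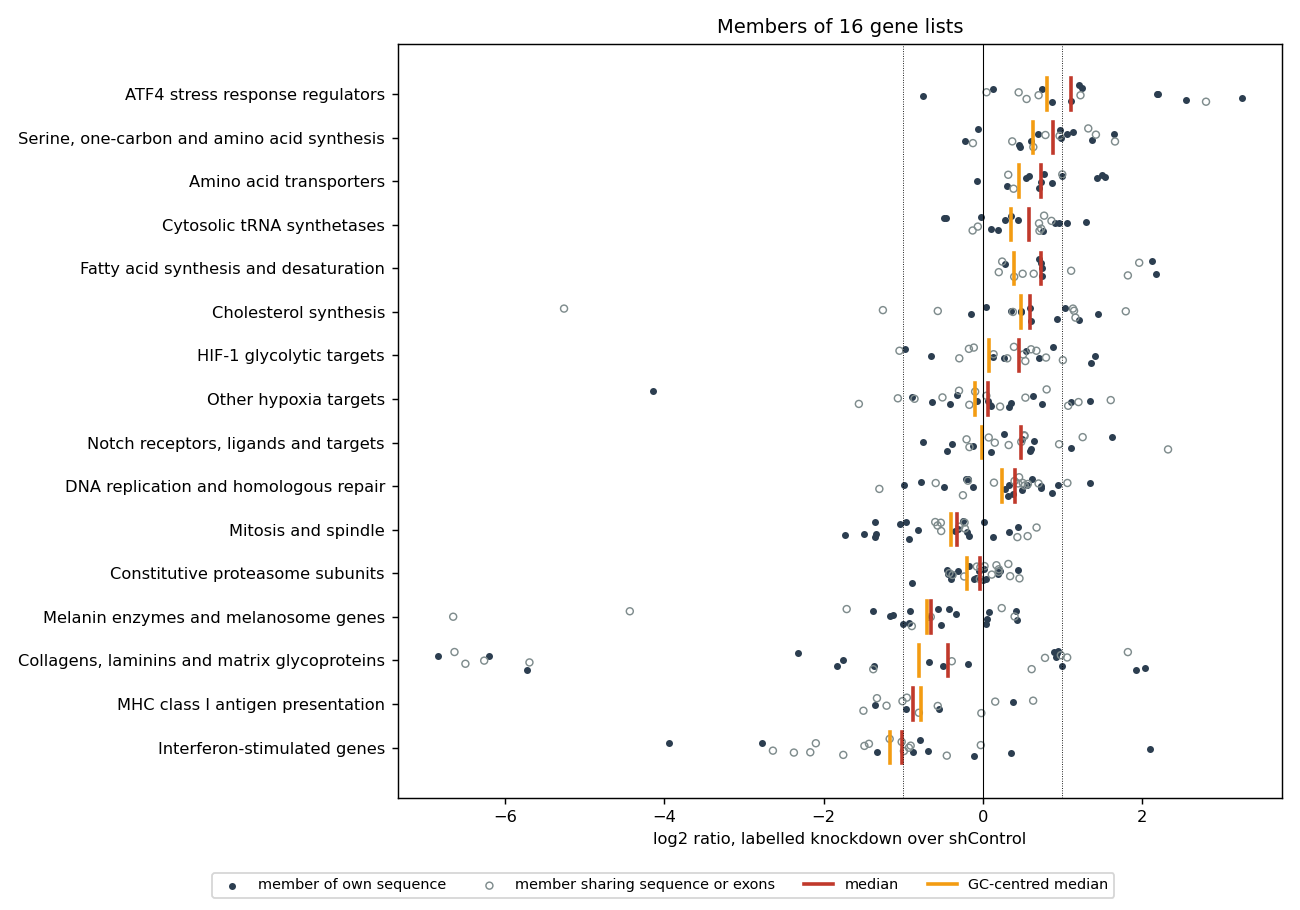
Log2 ratios, labelled knockdown over shControl, of the measured members of 16 gene lists, with filled points for genes of own sequence and open points for genes that share sequence or exons. Bars give each list's median before and after GC-centring, and dotted lines mark 2-fold. ATF4 stress genes have a median of 1.11 and interferon-stimulated genes of -1.02, with GC-centred medians of 0.80 and -1.17, while the Notch median of 0.48 becomes -0.01.

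Lists made largely of genes that share sequence could not be read apart from the kind of column. Long non-coding RNAs of the nucleus and hosts of small nucleolar RNAs had 9 of 19 lower and 1 higher (median -0.86, GC-centred -0.75), but 1 member is of own sequence and 4 had 0 counts in the library labelled knockdown: Snhg3, H19, Miat and Meg3. These 4 also had 0 counts in the library labelled overexpression. The higher one was Malat1, an abundant nuclear RNA, at 116 CPM under the knockdown label, 1240.0 under the overexpression label, 328 in dynamic suspension, 82.3 in conventional 3D culture and 25.8 in shControl. Of 13 genes encoded in mitochondrial DNA 6 were lower and 1 higher (median -0.73, GC-centred -0.05), and 8 lay lower in both plain-count libraries than in all 3 others. The extremes were mt-Atp8, at 2.23 CPM under the knockdown label against 1153 CPM in shControl with 4.11 CPM in the library labelled overexpression, and mt-Nd1, at 3874 CPM under the knockdown label against 1649 CPM in shControl.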

How the data were processed

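Poly(A) RNA of pooled B16F10 spheroids was sequenced as 150 bp paired reads, per the labels' protocols, with 1 library for each of 5 groups. The submitters' processing notes name cutadapt, HISAT2 and StringTie and the builds GRCm38.p6 and mm10, without roles, with the counting program and annotation not given in the sources used here. The authors deposited 1 table of 54100 Ensembl genes. Judged by its values, the deposited columns of the libraries labelled knockdown and overexpression hold raw counts, and the 3 other columns deposited by the authors hold estimated counts. Column totals lay between 14803426 and 61267892.

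Here, columns were scaled by TMM factors over 5 libraries (edgeR 4.0.16 in R 4.3.3) and log2 ratios used a prior count of 2. The 95% interval of each ratio is an exact conditional binomial one, computed in Python 3.11.15 with SciPy 1.17.1, and covers counting error only. Genes needed a mean of 1 CPM over the 2 libraries. The calling step was run on simulated counts that hold counting error only. They hold no spread between cultures, difference in kind of column or GC trend, so that run says nothing on these. Exon overlap came from the annotation in the reference folder, GRCm38, with 31-base words used for shared sequence. All 54100 identifiers matched. With 1 library per group no p-value was computed. The floor for 0 counts is 3 counts per library.

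Named genes are Hif1a and its pathway, the 12 highest and 12 lowest own-sequence genes with at least 10 CPM, the 8 highest and 8 lowest with at least 200 CPM, up to 4 members in each direction of 59 gene lists, and 8 genes farthest outside the other libraries in each direction. Other genes given with values, those whose promoters are shown and the matrix genes plotted were chosen after their values were seen. Some genes that these rules name are not reported here. The comparison, the lists and the rules were chosen with earlier results of these data known. Promoters are the 250 bases before each RefSeq start on GRCm38.p6. Alternatives were 4 other scalings, a prior of 0.5, no minimum, a minimum of 10 CPM and own-sequence genes only. GC-centring, in 20 bins, and an interval with shControl counts divided by 4 were added after seeing the data.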

Additional observations from a re-analysis of the deposited data

How the results depend on the processing

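Each group has 1 library, so the spread between cultures is unknown and no library could be left out. No paired analysis was possible because the labels give no replicate numbers. The Hif1a log2 ratio stayed above 0 under the 7 alternatives run on it, but moved to 1.27 with GC-centring and 0.50 with scaling by own-sequence genes. Genes higher over all measured genes numbered 551 with GC-centring, 645 with a minimum of 10 CPM and 1653 with no minimum, and those lower 906 and 3275 with the last 2 settings. Own-sequence genes higher numbered 310 with GC-centring, and those lower 266 with a minimum of 10 CPM and 798 with no minimum. The 2 minimum settings change which genes are counted by construction, and GC-centring moves the centre of the ratios. Of 279 named genes beyond 2-fold, 89 no longer passed with GC-centring, 28 with own-sequence scaling, 8 with median-ratio factors and 3 with plain totals, and all 279 passed with TMM over the 2 libraries, a prior of 0.5 or the shControl counts divided by 4. Of 59 list medians, 12 changed sign with GC-centring, 9 with own-sequence scaling, 6 with members of own sequence only, 5 with a minimum of 10 CPM, 3 each with median-ratio factors and no minimum, 1 with plain totals and 0 with TMM over the 2 libraries or a prior of 0.5. Those of at least 0.5 in size kept their sign except the long non-coding RNAs, at 0.044 with members of own sequence only, and the cause was not tested. The interval of a gene with 1 or 2 counts in the library labelled knockdown is wide, 37.9 to 1135 for Bloc1s1, so depth limits those ratios.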

Other observations

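Median ratios differed between chromosomes. The 341 own-sequence genes of chromosome 8 had a median log2 ratio of 0.43 (GC-centred 0.23), the highest of the autosomes, and the 232 of the X chromosome had -0.29 (GC-centred -0.13), the lowest of the chromosomes in the nucleus. On chromosome 8 the median was 0.15 against the library labelled overexpression, and on the X chromosome -0.28.

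Of 5 further lists, the mesenchymal and invasive state genes held the highest share of calls. Circadian clock genes had 1 of 17 measured members higher and 2 lower beyond 2-fold (median log2 ratio 0.06, GC-centred -0.17). Nfil3, a repressor of the clock, was 40.5 CPM under the knockdown label against 11.9 CPM in shControl. Iron genes had 0 of 15 measured members higher and 1 lower beyond 2-fold (median log2 ratio -0.24, GC-centred 0.12), and the 1 lower gene, Trf (shared sequence), which encodes transferrin, was 6.63 CPM under the knockdown label, 7.62 under the overexpression label, 514 in dynamic suspension, 326 in conventional 3D culture and 245 in shControl. Autophagy genes had 1 of 22 measured members higher and 1 lower beyond 2-fold (median log2 ratio 0.08, GC-centred -0.15). Ribosome biogenesis genes had 0 of 29 measured members higher and 2 lower beyond 2-fold, both of shared sequence (median log2 ratio 0.12, GC-centred -0.19). Mesenchymal and invasive state genes had 1 of 14 measured members higher and 4 lower beyond 2-fold (median log2 ratio -0.15, GC-centred 0.01). Their median also lay above 0 with members of own sequence only, at 0.26, and with the minimum mean raised to 10 CPM, at 0.33. Sox9, a neural crest and cartilage factor, was 4.73 CPM under the knockdown label, 5.95 under the overexpression label, 54.7 in dynamic suspension, 20.4 in conventional 3D culture and 14.7 in shControl, so the library labelled knockdown lay well below shControl. Smad6, an inhibitor of BMP signals, was 7.35 CPM under the knockdown label, 1.25 under the overexpression label, 1.56 in dynamic suspension, 1.58 in conventional 3D culture and 2.39 in shControl.

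Other elements were counted in the same promoter windows. The sterol element searched as TCACNCCAC was found in 1 of 14 cholesterol synthesis genes with a promoter, 0 of 11 sterol sensing genes and 1 of 13 fatty acid genes, against 1.22% of measured genes. The AP-1 element TGANTCA was found in 0 of 18 immediate early genes and 1 of 13 matrix protease genes, against 4.96%. The TEAD element GGAATG stood in 7 of 16 YAP and TEAD targets, against 12.4%. These counts say only which letters these windows hold.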
